A study of Bos taurus with 30 samples.

Results

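The miR-15/16 family with miR-195 and miR-497 was described in bull calves of the Holstein-Friesian breed, in the anterior pituitary, the lobe that secretes growth hormone, gonadotropins and other pituitary hormones. The members were taken by name (bta-miR-15a, bta-miR-15b, bta-miR-16a, bta-miR-16b, bta-miR-195 and bta-miR-497), which gave 6 of the 1030 mature miRNAs in the table, and all 6 passed the filter on low counts that left 419 miRNAs for testing. The family was chosen by the normalized expression of miR-195 and miR-497, already known to be higher in HI calves, so the differences of the 6 members between diets are a description with no test. Other miRNAs were tested in the fit of all miRNAs. There were 15 calves on a high plane of nutrition (HI) and 15 on a moderate one (MOD), fed from 2 weeks of age until the gland was collected at 12 weeks. HI calves were given 1.5 kg of milk replacer in 10 litres per day with concentrate ad libitum, and MOD calves 0.5 kg in 4 litres with 0.5 kg of concentrate. All calves were bulls of one breed from several farms, and each gave 1 small RNA library of bulk tissue, so n counts calves.

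Members of this family carry the same seed, the stretch near the 5′ end of a mature miRNA that pairs with target mRNAs, so they can act on overlapping sets of targets. The family is known for restraining the cell cycle through cyclins and cyclin-dependent kinases, for lowering the survival factor BCL2, and for the loss of miR-15a and miR-16 in chronic lymphocytic leukaemia and in some pituitary adenomas. Its genes lie in pairs. RefSeq places them as follows on ARS-UCD2.0: MIR15A and MIR16A were neighbours inside the transcribed pseudogene LOC100847818, MIR15B and MIR16B were neighbours inside SMC4, a gene for a condensin subunit that compacts chromosomes in mitosis, and MIR195 and MIR497 were neighbours inside the long non-coding RNA gene LOC107131510. The 2 members of a pair are thought to be cut from 1 primary transcript. The mature miRNAs were matched to these genes by name alone, and with no sequences used it was not checked which of the near-identical miR-16a and miR-16b comes from which locus.

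Libraries held between 6650492 and 11086524 miRNA reads, and values are CPM (reads of a miRNA relative to all miRNA reads of the library) that the authors normalized by TMM, a scaling between libraries. The endocrine and epithelial markers of the tissue were high, since the 9 markers from miR-375 to miR-183 summed to between 157623 and 257640 CPM, whereas the liver marker miR-122 did not exceed 0.209 CPM. HI replicate 1 stood apart. It had the most miR-143, a miRNA of smooth muscle and fibroblasts, at 181565 CPM against 31533 to 80613 CPM in the other 29 libraries, and the least miR-375. It also had the most miR-451, a miRNA of red blood cells, at 403 CPM against 56.8 to 276 CPM in the other 29. The 9 libraries with the highest calf label numbers (5 HI and 4 MOD) were known from earlier results to differ from the other 21, so differences are also given within these sets.

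The abundant members came from the miR-16 side. Expression of miR-16b ranged from 2626 to 3912 CPM in HI calves with a median of 3148, and from 2718 to 3670 CPM in MOD calves with a median of 3326. Expression of miR-16a was 1032 to 1791 CPM in HI calves with a median of 1429, and 1280 to 1842 CPM in MOD calves with a median of 1484. Together these members made up 86.8% ± 1.06 (SD, n = 30) of the family's reads. For miR-16a 4 HI calves lay below every MOD calf, and for miR-16b 3 lay below and 2 above every MOD calf, with the other HI calves inside the MOD range. Expression of miR-15a was 308 to 455 CPM in HI calves (median 388) and 328 to 451 CPM in MOD calves (median 414). Expression of miR-15b was 104 to 149 CPM in HI calves (median 126) and 109 to 158 CPM in MOD calves (median 127). The lowest miR-15a value of the 30 belonged to HI replicate 1.

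The miR-195 and miR-497 pair was the least abundant source of the seed. Expression of miR-195 was 120 to 262 CPM in HI calves with a median of 145, and 91.1 to 147 CPM in MOD calves with a median of 112. The MOD median was exceeded by all 15 HI calves and the highest MOD calf by 7, while 11 MOD calves lay below the lowest HI calf, so the groups overlapped only between 120 and 147 CPM. Expression of miR-497 was 47.4 to 77.1 CPM in HI calves with a median of 63.9, and 30.9 to 65.0 CPM in MOD calves with a median of 49.0. For this miRNA 14 HI calves exceeded the MOD median and 5 exceeded every MOD calf. The CV over the 30 libraries, which holds the difference between diets, was 24.8% for miR-195 and 19.9% for miR-497, against 2.93% and 4.53% from counting alone. With 1 library per calf, library preparation and calf cannot be told apart in the rest.

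**Figure D1:**
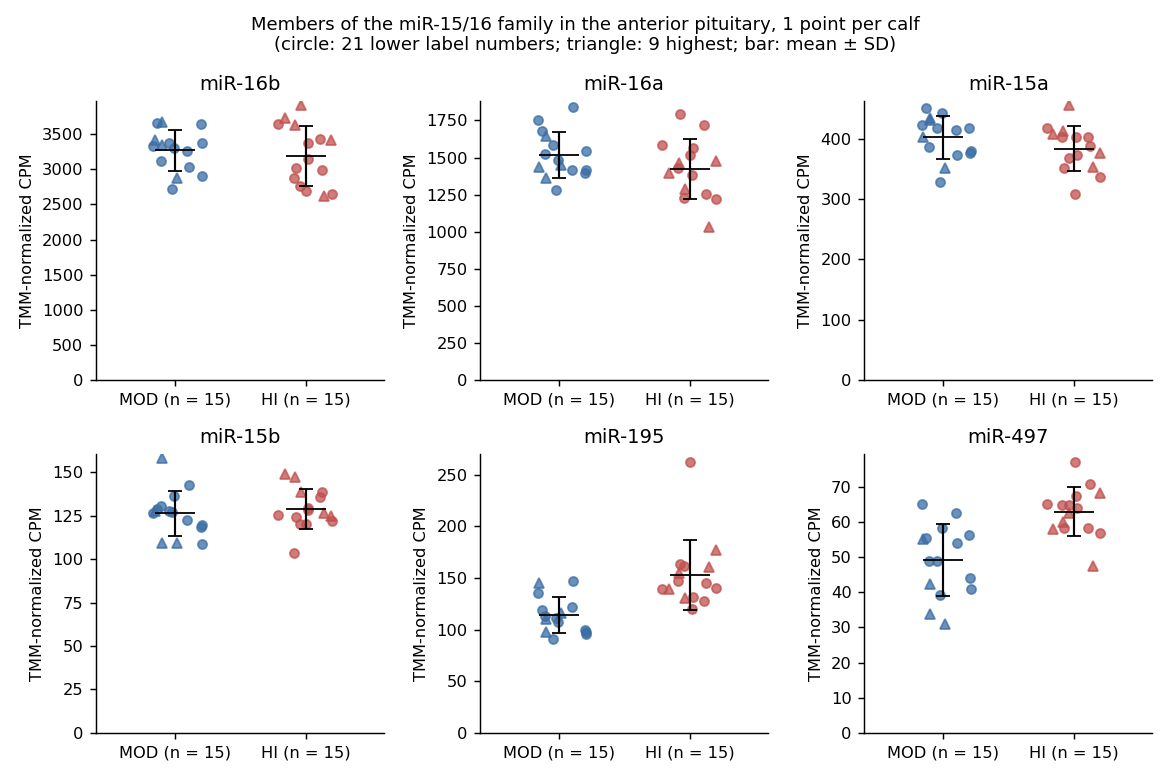
TMM-normalized CPM of the 6 members (y axes from 0) in each calf by diet, with the mean and SD as bars; triangles are the 9 calves with the highest label numbers. For miR-16a 4 of the 15 HI points lie below every MOD point, and all 15 HI points of miR-195 lie above the MOD median.

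The order of levels was miR-16b, miR-16a, miR-15a, miR-195, miR-15b and miR-497, by mean CPM over the 30 calves. Mature miRNAs are of nearly equal length, so CPM was compared between them directly, although ligation and amplification favour some sequences over others. Within a calf miR-16b was 2.20-fold above miR-16a, miR-16a 3.73-fold above miR-15a, miR-15a 2.99-fold above miR-195, and miR-15b 2.30-fold above miR-497, as ratios of geometric means of CPM + 1. Each of these 4 steps had the same direction in 30 of 30 calves (two-sided permutation test with sign flips, p = 1e-05, the smallest the permutations can give, adjusted p = 1.25e-05 over 5 pairs). The order was taken from the same 30 calves, so the pairs and their directions were not set before the test. The remaining neighbours, miR-195 and miR-15b, did not differ beyond their spread, with miR-195 higher in 15 of 30 calves (mean log2 difference 0.04, SD 0.33, adjusted permutation p = 0.576). By diet, miR-195 was above miR-15b in 11 of 15 HI calves and in 4 of 15 MOD calves.

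Across the fit of all 419 miRNAs, 2 of the 6 members passed FDR < 0.1 and both were higher in HI calves, in limma on log2(CPM + 1). Of all miRNAs tested 1.91% passed in that direction and 3.58% in either. With edgeR (quasi-likelihood, recovered reads) the same 2 members passed, beside 3.1% of all miRNAs higher in HI calves. As miR-195 and miR-497 were chosen for this contrast, nothing is read from their count. No member reached the fold change of 1.5 that the study's threshold added. The log2 difference, HI minus MOD, was 0.41 (standard error 0.09) for miR-195 and 0.37 (standard error 0.09) for miR-497, and the fold was 1.33 for miR-195. Of the other 4 members, the log2 difference was -0.07 for miR-15a (standard error 0.05) and 0.03 for miR-15b (standard error 0.05). It was -0.10 for miR-16a (standard error 0.06) and -0.04 for miR-16b (standard error 0.06). The median over the 6 was 0.00 (-0.0046), and over all 419 miRNAs 0.02. In bulk tissue a change in the number of cells that make a miRNA cannot be told apart from a change in its amount per cell.

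The scaling of libraries moved all members together. Under 4 other scalings (total counts, upper quartile, RLE, and library sizes without the 5 most abundant miRNAs) and the deposited one, the log2 difference ran from 0.31 to 0.48 for miR-195 and from 0.27 to 0.44 for miR-497. It stayed negative for miR-15a (-0.17 to -0.0023) and miR-16a (-0.20 to -0.04), and changed sign for miR-15b (-0.07 with upper quartile factors to 0.10) and miR-16b (-0.14 to 0.03 without the 5 most abundant miRNAs). In the set of 21 libraries the difference was 0.42 (standard error 0.11) for miR-195 and 0.32 (standard error 0.09) for miR-497. In the set of 9 it was 0.38 (standard error 0.14) and 0.56 (standard error 0.18). Both were higher in HI calves in each set, but the sets are parts of the libraries on which the pair was chosen, so this is a description. For miR-497 the 4 MOD calves of the set of 9 had 30.9 to 55.2 CPM, against 39.3 to 65.0 CPM in the other 11.

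**Figure D2:**
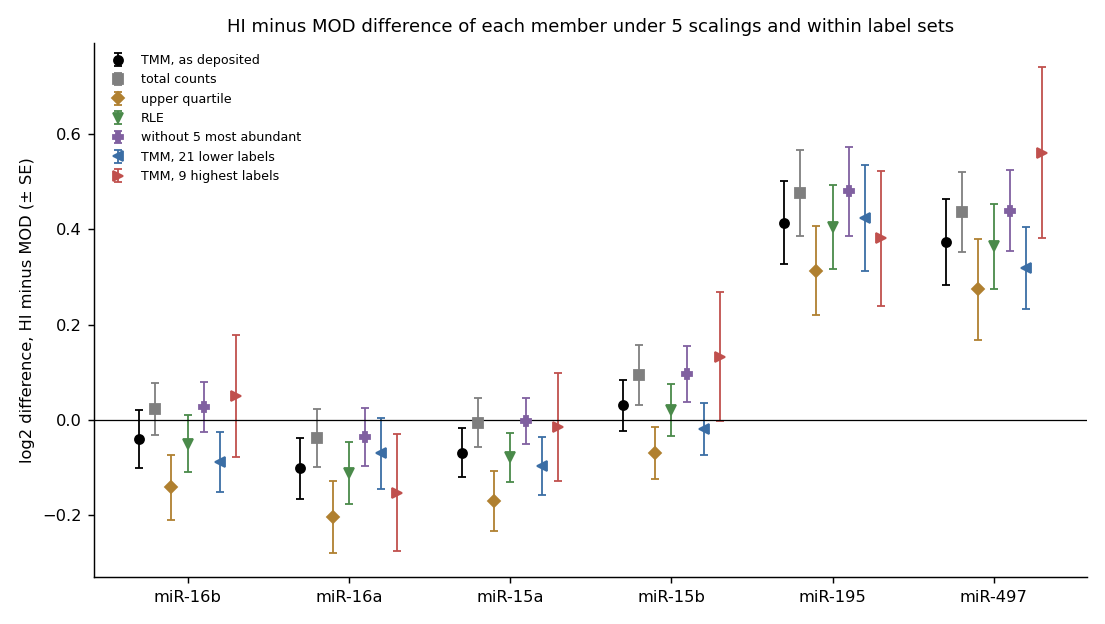
Log2 difference HI minus MOD of each member (y axis, with standard error bars) under 5 scalings and, with the deposited scaling, within the 21 and the 9 libraries. For miR-195 and miR-497 every point lies between 0.27 and 0.56, and for the other 4 members the points lie between -0.20 and 0.13.

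A ratio taken within a library does not depend on how libraries are scaled. The sum of miR-195 and miR-497 over the sum of miR-15a, miR-15b, miR-16a and miR-16b was 0.0328 to 0.0732 in HI calves with a median of 0.0419, and 0.0245 to 0.0373 in MOD calves with a median of 0.0306. Every one of the 15 HI calves exceeded the MOD median, and 10 exceeded every MOD calf. The log2 difference of this ratio was 0.46 (standard error 0.09), at 0.48 within the 21 libraries and 0.44 within the 9. In terms of the family's reads, miR-195 and miR-497 supplied 4.10% ± 0.930 (SD, n = 15) in HI calves and 2.98% ± 0.406 (SD, n = 15) in MOD calves. The whole family was 0.546% ± 0.0463 of the reads of HI libraries and 0.536% ± 0.0349 of those of MOD libraries (SD, n = 15 each), a difference smaller than either SD. The sum of the 6 in TMM-normalized CPM had the other direction, at 5346 ± 551 in HI and 5480 ± 409 in MOD calves (SD, n = 15 each), also by less than either SD. The ratio of miR-497 to miR-195 had a median of 0.418 in HI calves and 0.435 in MOD calves, with a log2 difference of -0.04 (standard error 0.10).

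**Figure D3:**
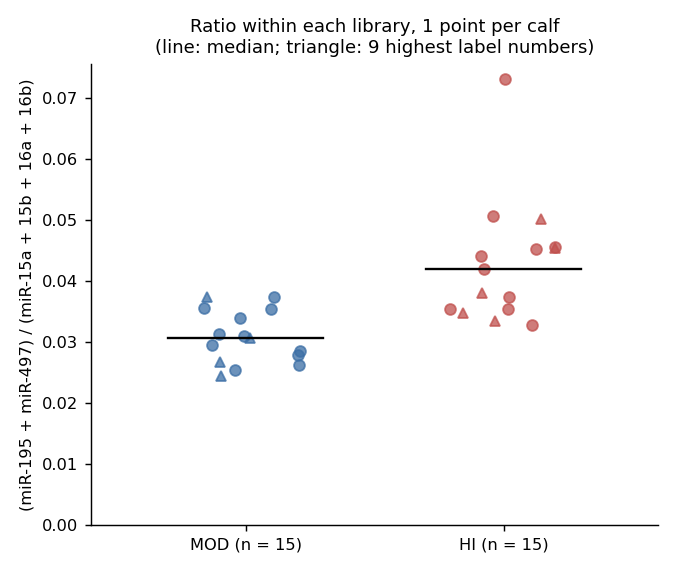
Ratio of miR-195 plus miR-497 to the sum of the other 4 members within each library (y axis from 0, no unit), by diet, with the median as a line. The HI median is 0.0419 and the MOD median 0.0306, and HI replicate 1 is the highest point at 0.0732.

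HI replicate 1 had the highest miR-195 (262 CPM, against at most 177 CPM in the other 29 libraries) and the highest miR-497 (77.1 CPM, against at most 70.8 CPM). Without it the miR-195 difference was 0.36, the lowest value when calves were left out one at a time. The 4 stromal markers, miR-143, miR-145, miR-199a-3p and miR-214, summed to 32071 to 183141 CPM in HI calves and 33270 to 76082 CPM in MOD calves, and 0 of the 4 passed FDR < 0.1 in limma (1 had an unadjusted p under 0.05, and edgeR and DESeq2 called 0). The log2 difference of all 4 was above 0, with a median of 0.14. That of miR-199a-3p was 0.28 (standard error 0.13), with 11 HI calves above the MOD median and 6 above every MOD calf, and its part in the values of miR-195 and miR-497 was not tested. With miR-143 as a covariate, added after the data were seen, the difference was 0.37 for miR-195 and 0.35 for miR-497. Red blood cells also carry much miR-16. Of their 3 markers miR-451 and miR-144 were higher in HI calves by 0.55 and 0.46 on the log2 scale and miR-486 was lower by 0.27 (log2 difference -0.27), none past FDR < 0.1 in limma, although all 3 had an unadjusted p under 0.05 and edgeR and DESeq2 each called 2. The summed level of the 3 was 10578 to 24489 CPM in HI calves and 15557 to 27422 CPM in MOD calves. With miR-486 as a covariate the difference was 0.46 for miR-195, 0.40 for miR-497, -0.11 for miR-15a, 0.00 (-0.0019) for miR-15b, -0.08 for miR-16a and -0.08 for miR-16b. The markers miR-451 and miR-144, which differed between diets in the other direction from miR-486, were not used as covariates. The part of red blood cells in the members' differences was therefore not tested.

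The rule did not use how members vary among calves of 1 diet, so this was tested. The mean of each diet was subtracted from log2(CPM + 1), and 15 pairs of members were correlated over the 30 calves, with two-sided permutation tests that shuffled calves within a diet and Benjamini-Hochberg adjustment over the 15. The tightest pair was miR-15a with miR-16b, which by name belong to different loci (r = 0.825, Spearman's rho = 0.818, permutation p = 1e-05 for each, the smallest the permutations can give, adjusted p = 0.00015 for each). It was 0.823 within HI calves, 0.852 within MOD calves, 0.793 within the 21 libraries, 0.875 within the 9, and 0.794 without the 2 calves farthest from the miR-15a median, with adjusted permutation p between 0.00015 and 0.0312 (exact in the set of 9). Calves with more miR-15a than others of their diet thus had more miR-16b, whichever set they belonged to.

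The 3 pairs that are neighbours by name had lower r, but the difference between correlations was not tested. If miR-16a and miR-16b were exchanged between the loci, miR-15a and miR-16b would be neighbours, so no statement on neighbouring genes is made from these values. For miR-15a and miR-16a r was 0.160 (rho = 0.182, permutation p = 0.415 and 0.342, adjusted p = 0.478 and 0.448), 0.208 within the 21 libraries, 0.356 within the 9, and 0.137 without the 2 calves farthest from the median. For miR-195 and miR-497 r was 0.334 (rho = 0.363, permutation p = 0.0559 and 0.0536, adjusted p = 0.177 and 0.161), 0.486 within the 21, 0.381 within the 9, and 0.268 without those 2 calves. For miR-15b and miR-16b r was 0.482 (rho = 0.484, permutation p = 0.00579 and 0.00744, adjusted p = 0.0434 and 0.0558), but it was 0.248 within the 21 libraries, 0.615 within the 9 and 0.425 without the 2 calves, and in none of these 3 did it pass adjusted p < 0.05. A total of 2 of the 15 pairs passed adjusted p < 0.05, and 13 of the 15 had a positive r. The share over pairs of other miRNAs is not given and all values share the scaling of the library, so nothing about the family is read from these counts. The lowest r, -0.439, was between miR-15a and miR-195 (rho = -0.366, permutation p = 0.0192 and 0.0515, adjusted p = 0.0959 and 0.161). It was -0.446 within the 21 libraries, -0.532 within the 9, -0.258 without the 2 calves farthest from the median, and -0.221 without HI replicate 1. Within HI calves this r was -0.711 (adjusted permutation p = 0.0276) and within MOD calves -0.07 (adjusted permutation p = 0.809), a difference that was not tested. HI replicate 1 had the lowest miR-15a and the highest miR-195, and over the other 14 HI calves r was -0.469.

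**Figure D4:**
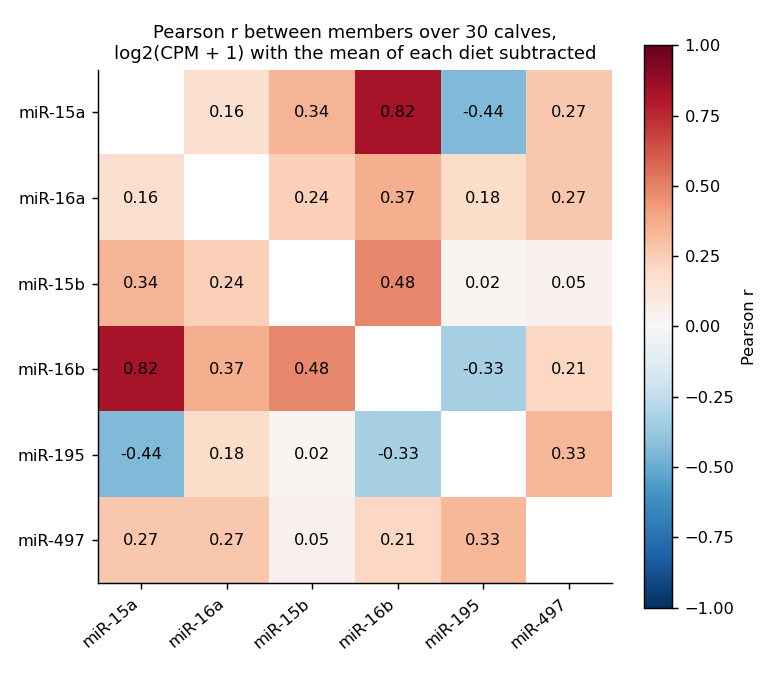
Pearson r between the 6 members over 30 calves, on log2(CPM + 1) with the mean of each diet subtracted, with genes that are neighbours by name placed side by side (colour from -1 to 1; the locus of miR-16a and miR-16b was not checked). The deepest cell is miR-15a with miR-16b at 0.82, and the lowest is miR-15a with miR-195 at -0.44.

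**Figure D5:**
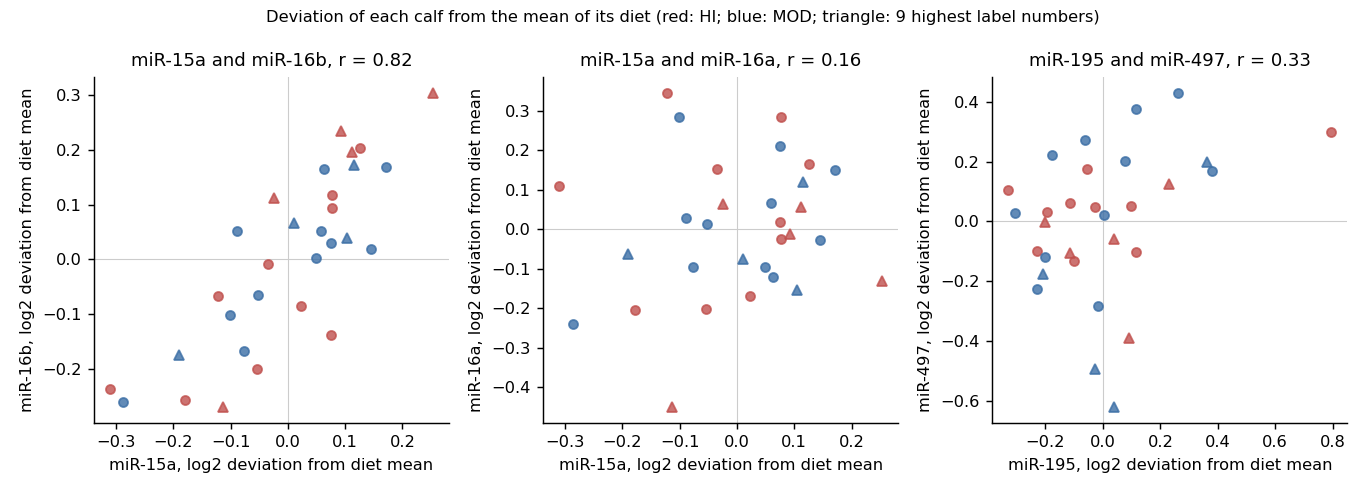
Deviation of each calf from the mean of its diet, in log2 units, for miR-15a against miR-16b, miR-15a against miR-16a, and miR-195 against miR-497. The first panel is a narrow band (r = 0.82), the second is scattered (r = 0.16), and in the third HI replicate 1 is the point farthest to the right.

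Near-identical members could exchange reads in counting. In all 180 values of the 6 members the recovered number of reads was whole within 0.01, so no member's value held a fraction of a read. In each library between 94.8% and 97.3% of the low values checked over all miRNAs were whole. A read counted in full under both names, such as miR-16a and miR-16b or miR-15a and miR-15b, would also give whole numbers. Whole values therefore cannot show whether near-identical members shared reads, and this was not tested. Mature sequences were not used here, and whether a read that ended early was placed on the right one of a near-identical pair was not tested. Read counts per library ran from 18973 to 38568 for miR-16b and from 245 to 769 for miR-497, the most and the least abundant member.

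Among the other miRNAs tested, likeness was measured as Pearson r of the diet-centred log2 values over the 30 calves, as a description. The 3 most like miR-195 were miR-143 (r = 0.636) and miR-145 (r = 0.625), the smooth muscle pair, and miR-20a (r = 0.596). The first pair rested on HI replicate 1, without which r was 0.276 for miR-143 and 0.290 for miR-145, against 0.549 for miR-20a. The 3 most like miR-497 were miR-181a (r = 0.623), miR-28 (r = 0.557) and miR-181b (r = 0.555). For miR-16b, the most abundant member, they were miR-186 (r = 0.799), miR-665 (r = 0.765) and miR-744 (r = 0.723). All these values share the scaling of the library, and the r of miR-16b with the log2 TMM factor was -0.502 and with log2 total reads 0.474.

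The r of each member with marker miRNAs among calves of 1 diet is given as a description. Differences between these r were not tested. Of the endocrine and epithelial markers, only miR-375 was correlated with the members. With miR-375, the miRNA of endocrine cells, r was 0.577 for miR-16b and 0.500 for miR-15a, against -0.352 for miR-195 and -0.245 for miR-497. Without HI replicate 1 these were 0.533, 0.410, -0.177 and -0.179. For miR-15b the r with miR-375 was 0.132 and for miR-16a -0.288, so miR-16a had the sign of miR-195 and miR-497. With miR-451 of red blood cells r was -0.583 for miR-16b (-0.534 without HI replicate 1) and -0.621 for miR-15a (-0.515 without it). It was 0.491 for miR-195 (0.258 without HI replicate 1) and -0.0930 for miR-497 (-0.248 without it). For miR-16a it was -0.0533 and for miR-15b 0.0371. The values of miR-195 and miR-497 with miR-451 had opposite signs. With miR-486, another red blood cell marker, r was -0.260 for miR-16b, -0.360 for miR-15a and -0.284 for miR-15b. It was 0.234 for miR-195 (0.0562 without HI replicate 1), 0.146 for miR-497 and 0.125 for miR-16a. The contrast of miR-16b and miR-15a with miR-195 was thus weaker with miR-486 than with miR-451. With miR-143 r was -0.334 for miR-16b and -0.290 for miR-15a (-0.194 and 0.109 without HI replicate 1). It was 0.636 for miR-195 and 0.364 for miR-497 (0.276 and 0.298 without it). For miR-15b it was -0.325 and for miR-16a -0.0247. With miR-126-3p, an endothelial marker, r was 0.0716 for miR-16b, 0.167 for miR-15a and 0.0283 for miR-15b. It was 0.366 for miR-195, 0.301 for miR-497 and -0.0747 for miR-16a.

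Other miRNAs with the same or a related seed did not pass the test. Expression of miR-424-5p, which carries the seed of the family and is encoded beside miR-503 on another locus, was 794 to 2497 CPM in HI calves (median 1157) and 834 to 2334 CPM in MOD calves (median 1242), more than miR-195 and miR-497 together. Its log2 difference was -0.06 with FDR = 0.935 from limma, and it turned positive in 2 of the 4 other scalings. The differences of miR-503-5p, miR-103 and miR-107, which carry related seeds, were 0.11, -0.02 and 0.04 with FDR = 0.890, 0.913 and 0.732 from limma. Of these 4 miRNAs 0 were called by limma, edgeR's quasi-likelihood test or DESeq2, and 0 had an unadjusted p under 0.05 in limma, beside 3.58% called and 12.6% with an unadjusted p under 0.05 over all miRNAs tested, so a count of 0 among 4 is near the background.

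Wider lists of cell cycle miRNAs were compared in the same fit. Of 14 tested miRNAs known for restraining the cell cycle (17 listed, from the let-7, miR-26, miR-34 and miR-449 families), 1 was higher and 2 were lower in HI calves at FDR < 0.1, with a median log2 difference of -0.01. The higher one was miR-34a, a target of p53, at 20.5 to 56.8 CPM in HI calves (median 31.7) and 14.1 to 30.8 CPM in MOD calves (median 22.1), with a log2 difference of 0.49 and FDR = 0.0256 from limma. The values of 10 HI calves lay above the highest MOD value, and it passed in 4 of 4 other scalings. The lower ones were miR-26a, with a log2 difference of -0.29 (FDR = 0.0613 from limma, passing in 3 of 4 other scalings), and miR-26b, with -0.13 (FDR = 0.0396 from limma, passing in 2 of 4). Expression of miR-26b was 9140 to 10971 CPM in HI calves and 9873 to 11924 CPM in MOD calves, and 8 HI calves lay below the lowest MOD calf. Among these 14 restraining miRNAs edgeR called 3 and DESeq2 4, and 4 had an unadjusted p under 0.05 in limma. Over all miRNAs tested 12.6% had such a p and 3.58% were called by limma in either direction. Of 13 tested miRNAs known for promoting proliferation (15 listed, from the cluster of miR-17 and its paralogs with miR-221 and miR-222), 0 passed in limma, edgeR or DESeq2 and 1 had an unadjusted p under 0.05 in limma, with a median log2 difference of 0.03. These members of the cell cycle lists thus moved in both directions or did not pass, beside 1.91% higher and 1.67% lower over all miRNAs tested.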

How the data were processed

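Small RNA of the anterior pituitary was sequenced in 30 libraries, 1 per calf. The study blocked calves on age, bodyweight, sire and farm, which the labels do not give. The authors removed adapters and reads outside the size range with Cutadapt, filtered out rRNA, tRNA and similar reads, and quantified bovine miRBase miRNAs with miRDeep2 and Bowtie on ARS-UCD1.2. The deposited signal is CPM divided by TMM factors, made by the authors, with column sums of 828807 to 1090510. The CPM worth of 1 read in each library gave back whole reads, and of the values used for this at least 94.8% per library came out whole within 0.01 reads; TMM factors recomputed from them matched those implied by the file to within 6.79e-06. A miRNA with no read could be present at up to 3 reads (0.266 to 0.419 CPM), for counting error only. No libraries were copies (chi-square per degree of freedom at least 74.6 over 435 pairs).

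HI and MOD were compared with limma 3.58.1 (trend) in R 4.3.3 applied to log2(CPM + 1) for 419 miRNAs left by filterByExpr, with Benjamini-Hochberg adjustment over all of them; on this scale the change of low miRNAs is understated. The call was FDR < 0.1. edgeR 4.0.16 and DESeq2 1.42.0 on the rounded recovered reads, other scalings, filters, a pseudocount of 0.1, covariates and leaving out each calf were alternatives. Single values used permutation tests of 1e+05 resamples, exact in the set of 9 libraries. The fit was tested on simulated data. The members, lists, sets of libraries and tests were chosen with earlier results of these data known. The text names the members, miRNAs of related seed and called members of the lists. It also names the 3 miRNAs most like miR-195 and miR-16b, and red blood cell markers. Those most like miR-497, miR-375, miR-122, miR-126-3p and the stromal markers were added after their values were seen. Neighbouring genes came from RefSeq ARS-UCD2.0, another build, so no coordinates are given. Mature sequences were not used here, so the planned count of shared seeds was not made.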

Additional observations from a re-analysis of the deposited data

How the results depend on the processing

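No paired analysis was possible because calves of different diets share no replicate number in the labels, which do not give the study's blocks of age, bodyweight, sire and farm either. With 4 ranges of the last 4 digits of the calf label number as a block, each holding both diets, the log2 difference was 0.40 for miR-195 and 0.44 for miR-497. These ranges do not follow the order of the whole label number that defines the set of 9. The number of members at FDR < 0.1, which was 2, was 1 with upper quartile factors, where miR-497 no longer passed and 5 members (2 higher and 3 lower in HI calves) had an unadjusted p under 0.05, and 0 within the 9 libraries with the highest label numbers, where 2 had an unadjusted p under 0.05; edgeR's quasi-likelihood test and DESeq2 called 2. Leaving out each calf gave 2 to 2. The direction of miR-195 and miR-497 was the same in 45 other settings of each. Their choice on these libraries largely fixes both this direction and the counts of members called above, so nothing is read from either. Leaving out each calf, the log2 difference ran from 0.36 to 0.44 for miR-195 and from 0.33 to 0.40 for miR-497. Over all miRNAs tested 15 passed FDR < 0.1 (8 higher and 7 lower in HI calves). This was 24 in DESeq2, 29 with upper quartile factors (3 higher, 26 lower) and 0 within the 9 libraries (26 at an unadjusted p under 0.05 in limma), and the split was 16 to 2 on total counts and 19 to 1 without the 5 most abundant miRNAs. In the order of levels, the 4 steps that passed also passed in the alternatives run, while miR-195 and miR-15b again did not differ beyond their spread.

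The correlation of miR-15b with miR-16b, 0.482 with adjusted p = 0.0434, no longer passed on total counts (r = 0.487), within the 21 libraries (0.248) or the 9 (0.615), as Spearman's rho (0.484), with miR-486 regressed out (0.441), within HI calves (0.628) or MOD calves (0.325), or without the 2 calves farthest from the median (0.425), in permutation tests. It ran from 0.435 to 0.536 as each calf was left out, and failed in 20 of 30 such fits. The correlation of miR-195 with miR-497 passed with upper quartile factors (r = 0.478) and, added after the data were seen, with the set of 9 subtracted (0.411); it ran from 0.246 without HI replicate 1 to 0.400. That of miR-15a with miR-16b ran from 0.798 to 0.859 and that of miR-15a with miR-16a from 0.0576 to 0.249. Upper quartile factors shift all miRNAs (the median log2 difference was -0.08) and the sets hold fewer calves; elsewhere the cause was not tested. Depth limits the rarest member, miR-497, to 245 reads in 1 library.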
